A study of Homo sapiens with 4 samples.

Results

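The genes described here are 5 cadherins (CDH1, CDH2, CDH3, CDH13 and CDH19) and 5 transcription factors of epithelial-mesenchymal transition, or EMT (SNAI1, SNAI2, TWIST1, ZEB1 and ZEB2). They were taken by name, through every probe set of an Affymetrix HG-U133 Plus 2.0 array whose platform annotation names one of them. That gave 20 of the 54675 probe sets, each naming 1 gene only, for 9 of the 10 genes among 19775 genes in all. CDH13, a cadherin held in the membrane by a lipid anchor, had no probe set named for it here, so it has no value.

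RNA came from M14, an established human melanoma cell line. The cells carried either the pIRES2 plasmid alone or pIRES2 holding ARHGAP8 with a FLAG tag at its N terminus, the coding region lacking exon 5. Both lines were selected with G418 and sorted for the eGFP that the plasmid also encodes, so the controls share plasmid, drug and eGFP. Each line was cultured for 4 days on plastic coated with bovine type I collagen (2D) or embedded in growth factor-reduced Matrigel, a basement membrane gel (3D). The cultures differ in matrix as well as in dimension, and these cannot be told apart in any 3D over 2D difference below. Each of the 4 combinations was hybridised to 1 array. The labels do not say whether a line was 1 clone or a pool. The 4 probe sets annotated to ARHGAP8 also name other genes and read between 4.02 and 14.8, so they do not check the plasmid labels; with and without ARHGAP8 below means the plasmid as labelled. One line was measured per plasmid, and no ratio between 2 arrays has a replicate error. P-values therefore rest on the gap between the ratios of the 2 lines, or cultures, pooled with the spread of other genes of like signal, and on no replicate cultures.

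Classical cadherins join neighbouring cells through calcium-dependent contacts, and their cytoplasmic tails bind catenins that tie them to actin. CDH1, E-cadherin, holds melanocytes to keratinocytes in skin, and melanomas often carry CDH2, N-cadherin, in its place. SNAI, ZEB and TWIST proteins are transcription factors that repress CDH1, and those of the SNAI and ZEB families do so by binding E-box sequences in its promoter. In the melanocyte lineage SNAI2 and ZEB2 are known from melanocyte development, and ZEB1 and TWIST1 from less differentiated melanoma states.

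Between the culture conditions, 1 of the 6 members that could be tested rose in 3D and 1 fell, beside 2.83% and 4.15% of all 13239 genes tested. SNAI2 rose by 0.89 ± 0.16 log2 (moderated SE, 4 arrays) and CDH2 fell by 0.77 ± 0.18. CDH19 was higher in 3D in both lines without passing, and TWIST1 was higher in the ARHGAP8 line in both cultures without passing. CDH1, CDH3 and SNAI1 stayed below the floor, a signal of 72.3, on all 4 arrays. The floor is the median of all signals, and a signal under it was treated as not measured above background. In bulk RNA, fewer cells expressing a gene and less of its RNA per cell cannot be told apart.

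RefSeq promoter windows on GRCh38.p14 were matched by symbol for 4 of the 10 members, with 11 annotated starts among them. The 250 bases before the start are shown for CDH2 and CDH19, which lie on the same chromosome and differed in opposite directions between 2D and 3D, and for the outermost start of ZEB1, one of the repressors. Each runs 5′ to 3′ on the gene's own strand. Capitals mark the E-box word CACCTG, searched on both strands, so that CAGGTG is the same word on the other strand.
CDH2, chr18:28177131-28177380, minus strand: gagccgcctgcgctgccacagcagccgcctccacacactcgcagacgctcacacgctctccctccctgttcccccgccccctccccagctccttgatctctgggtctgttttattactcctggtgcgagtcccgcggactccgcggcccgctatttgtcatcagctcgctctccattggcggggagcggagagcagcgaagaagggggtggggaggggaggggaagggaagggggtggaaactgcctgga
CDH19, chr18:66604091-66604340, minus strand: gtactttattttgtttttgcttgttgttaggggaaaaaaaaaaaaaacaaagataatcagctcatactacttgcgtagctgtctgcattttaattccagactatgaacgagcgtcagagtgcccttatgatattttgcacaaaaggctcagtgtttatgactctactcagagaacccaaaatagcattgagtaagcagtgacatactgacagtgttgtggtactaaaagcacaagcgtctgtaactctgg
ZEB1, chr10:31318167-31318416, plus strand: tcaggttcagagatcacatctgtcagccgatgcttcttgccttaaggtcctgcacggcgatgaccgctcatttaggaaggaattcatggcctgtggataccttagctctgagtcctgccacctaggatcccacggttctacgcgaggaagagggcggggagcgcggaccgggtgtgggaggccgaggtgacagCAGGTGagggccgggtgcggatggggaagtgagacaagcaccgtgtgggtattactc
The word was present once in this ZEB1 window, and the letters do not occur in the CDH2 and CDH19 windows. Among the ZEB1 starts not shown, a single window held it, at 2 places, so its presence depends on the start taken. Over all 35116 windows of this length 17.5% held it. The CDH2 window shown held 17 CpG dinucleotides and was 66% G or C, and the CDH19 window held 4 and was 38%. A second annotated CDH2 start, whose window is not shown, had 4 CpG dinucleotides and 42% G or C, so the contrast with CDH19 depends on the start taken. A word in a window is a description of the letters and not a bound site.

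**Figure D1:**
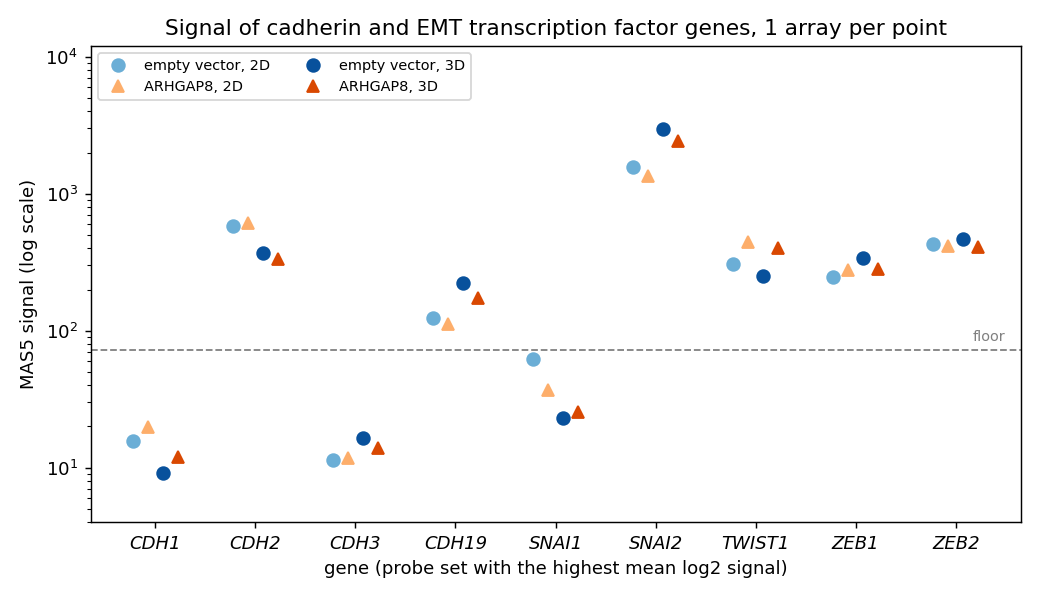
MAS5 signal, on a log scale, of the 9 members with a probe set, each by the probe set with the highest mean log2 signal; each point is 1 array, circles are the empty-vector line, triangles the ARHGAP8 line, light colours 2D and dark colours 3D. Both 3D points of SNAI2, CDH19 and ZEB1 lie above both 2D points, those of ZEB1 by little, those of CDH2 lie below, and CDH1, CDH3 and SNAI1 lie under the dashed floor of 72.3.

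CDH1 was not detectable above the floor in either line or culture. Its probe set 201130_s_at read 15.8 for the empty-vector line and 19.9 for the ARHGAP8 line in 2D, and 9.09 and 12.1 in 3D. Here and below, the first of 2 values for a culture is that of the empty-vector line. Its other probe set, 201131_s_at, read 5.59 and 7.72 in 2D and 4.10 and 5.49 in 3D. All 8 values lie far below 72.3, so no fold is given. CDH3, P-cadherin, which lies next to CDH1 on chromosome 16, read 11.3 and 11.8 in 2D and 16.5 and 13.9 in 3D, likewise below the floor.

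CDH2 was above the floor on all 4 arrays, unlike CDH1 and CDH3. Probe set 203440_at read 581 for the empty-vector line and 611 for the ARHGAP8 line in 2D, and 367 and 334 in 3D. Both 3D arrays were lower than both 2D arrays, which held for 22.7% of the genes tested. In 3D over 2D the log2 ratio was -0.66 without ARHGAP8 and -0.87 with it, or 0.632-fold and 0.546-fold. CDH2 passed for the culture in limma, in a model with culture and plasmid as additive terms. Its culture term was -0.77 ± 0.18 (SE), with a Benjamini-Hochberg adjusted p of 0.00994. Of the 13239 genes tested, 4.15% fell in 3D by this test, and 4.92% had a culture term at least as large in size as that of CDH2. The second CDH2 probe set, 203441_s_at, differed from the first. It read 202 and 198 in 2D and 207 and 151 in 3D, ratios of 0.03 and -0.39, and its culture term of -0.18 did not pass when every probe set was tested (adjusted p 0.778 in limma). Thus the fall of CDH2 rests on 1 of its 2 probe sets. CDH2 also did not pass in limma without the intensity trend (adjusted p 0.0621), with the mean of its probe sets (0.195) or with unfiltered genes (0.475).

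CDH19, a cadherin of neural crest and Schwann cell lineages that is also found in melanoma, read 124 and 112 in 2D and 223 and 174 in 3D on probe set 206898_at. Both 3D values exceeded both 2D values, as in 27.5% of the genes tested. The 3D over 2D ratios were 0.85 in the empty-vector and 0.63 in the ARHGAP8 line, with a culture term of 0.74 ± 0.25 and an adjusted p of 0.0789 in limma, short of the threshold. It passed when only genes above the floor on all 4 arrays were tested (adjusted p 0.0388 in limma). The other CDH19 probe sets lay near or below the floor. Probe set 1555403_a_at read 45.4 and 41.7 in 2D and 84.2 and 82.5 in 3D. Probe set 235639_at read 25.5 and 19.0 in 2D and 36.8 and 35.8 in 3D. The first of these was below the floor on both 2D arrays, so its 3D over 2D ratios of 0.22 and 0.19 are lower bounds. They have the sign of those of 206898_at, from 3D signals close to the floor. Its culture term of 0.21 did not pass when every probe set was tested (adjusted p 0.619 in limma). The second was below the floor on all 4 arrays and adds nothing to the direction.

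SNAI2, also named Slug, a zinc finger repressor, had the largest culture term of the 6 tested members. Probe set 213139_at, the only one naming it, read 1555 for the empty-vector line and 1354 for the ARHGAP8 line in 2D, and 2969 and 2435 in 3D. Both 3D arrays lay above both 2D arrays, again as in 27.5% of genes. SNAI2 was 1.91-fold higher in 3D in the empty-vector line, and 1.80-fold in the ARHGAP8 line. The culture term was 0.89 ± 0.16 log2 (SE), and limma gave a Benjamini-Hochberg adjusted p of 0.00174. By the same test 2.83% of genes rose in 3D, and 2.88% had a culture term at least as large in size. SNAI2 did not pass in the fit on the mean of each gene's probe sets (adjusted p 0.0843 in limma) or in that on unfiltered genes (0.475). SNAI1, the related repressor also named Snail, read 61.9 and 36.9 in 2D and 22.9 and 25.4 in 3D. All 4 values were below the floor, so the higher reading on the empty-vector 2D array gives no fold.

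TWIST1, a basic helix-loop-helix factor, differed between the lines more than between the cultures. Probe set 213943_at read 305 for the empty-vector line and 441 for the ARHGAP8 line in 2D, and 250.3 and 399 in 3D. Both ARHGAP8 arrays were above both empty-vector arrays, as in 12.7% of the genes tested. The ratio of the ARHGAP8 line over the empty-vector line was 0.53 log2 in 2D and 0.67 in 3D, or 1.45-fold and 1.60-fold. The plasmid term of 0.60 ± 0.19 (SE) did not pass in limma (adjusted p 0.28), and 2.92% of the genes tested had one at least as large in size. It did not pass under any of the 9 alternatives that could be tested, where it ran from 0.58 to 0.63. In 3D over 2D it was at -0.29 without ARHGAP8 and -0.14 with it (adjusted p 0.574 in limma).

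ZEB1, a zinc finger and homeobox repressor, was read by 4 probe sets, which did not show one pattern. Probe set 212764_at, with the highest mean signal, read 247 and 279 in 2D and 341 and 284 in 3D, both 3D values above both 2D values, as in 27.5% of the genes tested. Its culture term was 0.25 ± 0.21 (SE; adjusted p 0.551 in limma). Probe set 210875_s_at read 209 and 215 in 2D, then 295 in 3D for the empty-vector line against 125 for the ARHGAP8 line. Its 3D over 2D ratio was thus 0.50 without ARHGAP8 and -0.78 with it. Probe set 212758_s_at read 123 and 116 in 2D and 115 and 77.1 in 3D. On all 3 the ARHGAP8 3D signal was below the empty-vector 3D signal, by 0.27, 1.23 and 0.58 log2 in the order given. Probe set 239952_at lay below the floor, between 9.92 and 32.7. The antisense RNA gene ZEB1-AS1, which starts beside ZEB1, read 115 and 101 in 2D and 112 and 106 in 3D.

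ZEB2, the related repressor, had the smallest culture term of the 6 tested members by its probe set of highest signal. Probe set 203603_s_at read 433 and 418 in 2D and 467 and 411 in 3D, a highest over lowest ratio of 1.14-fold. Its culture term was 0.04 ± 0.18 and its plasmid term -0.12 ± 0.18 (SE), with adjusted p-values of 0.926 and 0.958 in limma. Probe set 228333_at read 167 and 152 in 2D and 134 and 180 in 3D, which gave a 3D over 2D ratio of -0.31 without ARHGAP8 and 0.24 with it. The other 3 ZEB2 probe sets read between 11.7 and 26.0, below the floor.

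**Figure D2:**
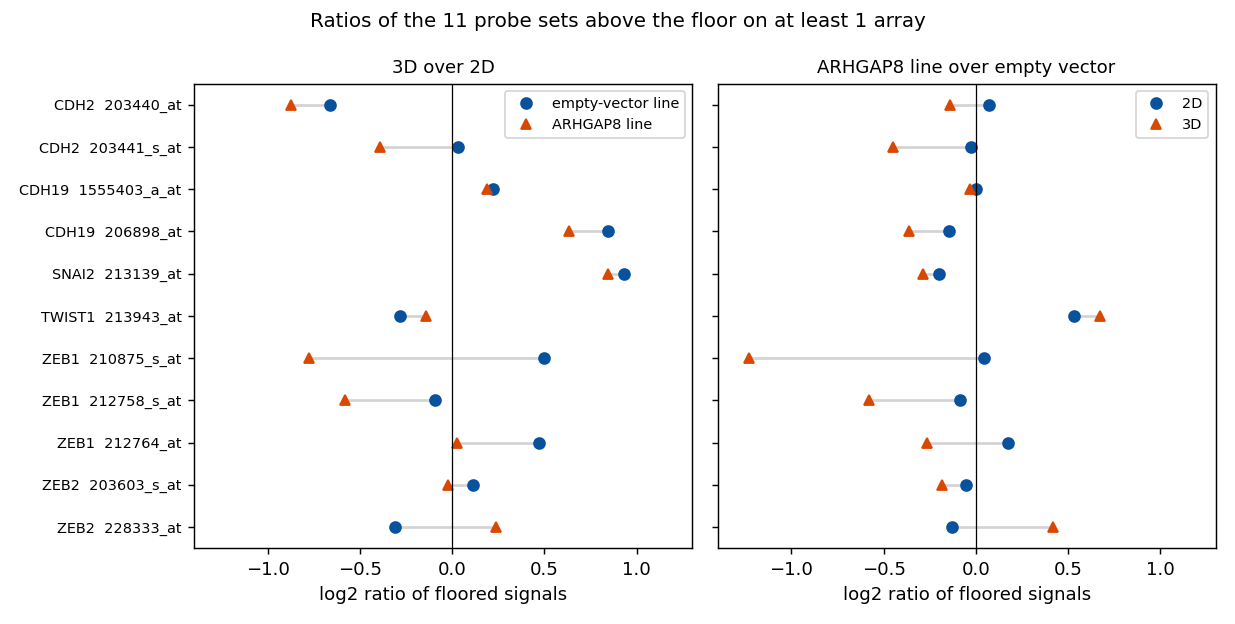
Log2 ratios of floored signals for the 11 member probe sets that exceeded the floor on some array: 3D over 2D in each line (left) and the ARHGAP8 line over the empty-vector line in each culture (right); a grey bar joins the 2 ratios of a probe set, and each ratio is 1 array over 1 array. SNAI2 and probe set 206898_at of CDH19 lie to the right on the left panel in both lines, the 2 CDH2 probe sets differ from each other, and probe set 210875_s_at of ZEB1 runs from 0.50 to -0.78.

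Between the lines no member passed. The 6 tested members gave 0 calls for the plasmid in limma, against 0.128% of the 13239 genes tested (17 genes, and 1078 at an unadjusted p under 0.05). Plasmid terms of CDH2, CDH19, SNAI2 and ZEB1 were -0.03, -0.25, -0.24 and -0.05. For SNAI2 the ARHGAP8 line read lower in both cultures, by 0.20 log2 in 2D and 0.29 in 3D, and for CDH19 by 0.15 and 0.36. For CDH2 the direction differed between the cultures, at 0.07 and -0.14. With 1 line per plasmid, the effect of ARHGAP8 and any other difference between the lines cannot be told apart.

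**Figure D3:**
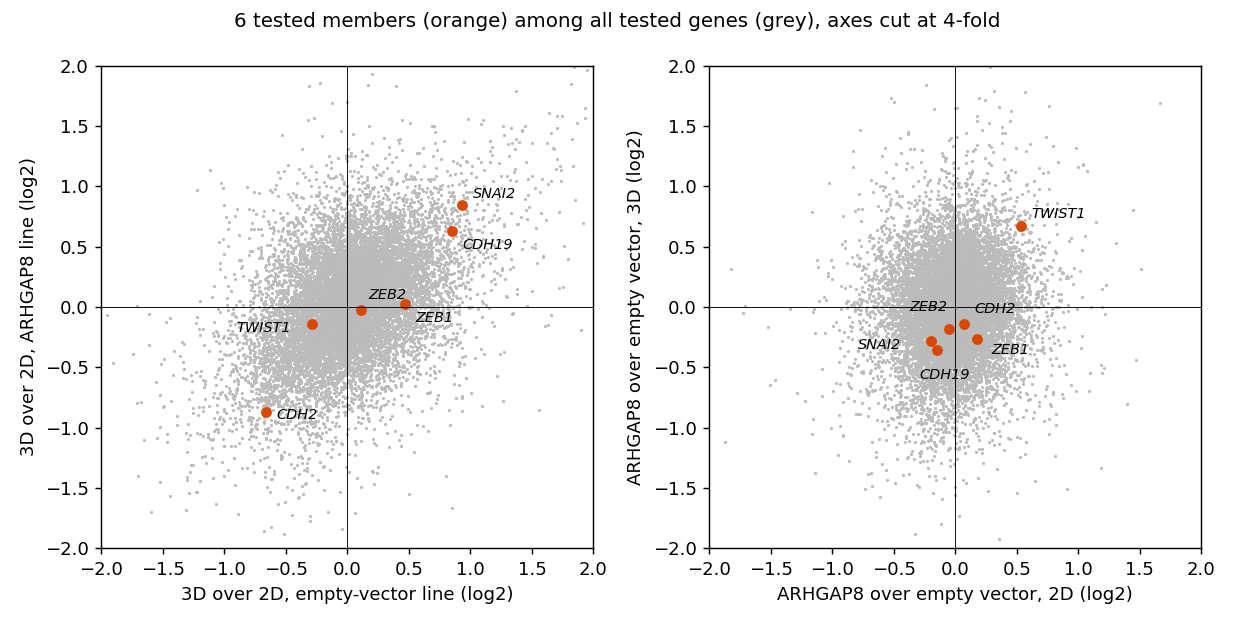
The 6 tested members (orange) among all 13239 tested genes (grey), as log2 ratios of 1 array over 1 array; left, 3D over 2D in the empty-vector line (horizontal) and the ARHGAP8 line (vertical), right, ARHGAP8 over empty vector in 2D (horizontal) and 3D (vertical), with axes cut at 4-fold. SNAI2 and CDH19 lie in the upper right and CDH2 in the lower left of the left panel, and TWIST1 lies in the upper right of the right panel.

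Whether the culture ratio depended on the line could be given as a value only, since no residual degree of freedom is left. The 3D over 2D ratio in the ARHGAP8 line minus that in the empty-vector line was -0.09 for SNAI2, -0.21 for CDH2, -0.21 for CDH19, 0.14 for TWIST1, -0.44 for ZEB1 and -0.13 for ZEB2. By these probe sets of highest signal, the ratios of both lines had the same sign for SNAI2, CDH2, CDH19, TWIST1 and ZEB1. The ZEB1 ratios were 0.47 without ARHGAP8 and 0.03 with it. Only for ZEB2 did the sign differ, at 0.11 and -0.02.

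Genes with the profile most like that of a member were sought over the 4 arrays, by the root mean square distance between log2 signals centred on their mean. SNAI2 was the 1 member of the 6 tested whose signal spanned at least 2-fold. Nearest to it were ACLY, which encodes ATP citrate lyase, at a distance of 0.035 log2, and the zinc finger gene ZNF506 at 0.043. ACLY read 1530 and 1426 in 2D and 3002 and 2476 in 3D, and 55 tested genes lay within 0.1 of SNAI2. The tested members spanning less than 2-fold fall outside that rule, and their nearest genes were added after their values were seen. They were CD2BP2 and the formin gene FHOD1 for CDH2, at 0.023 and 0.030, LOC105379362 and the kinase gene STK32A for CDH19, at 0.017 and 0.027, and CDC26 and CARD8 for TWIST1, at 0.040 and 0.046. For ZEB1 they were EEF1D and MMP9, at 0.0083 and 0.0086, and for ZEB2 RUVBL1 and KCNAB3, at 0.0033 and 0.011. With 4 arrays, 138, 86 and 47 genes lay within 0.1 of CDH2, CDH19 and TWIST1. Within 0.1 of ZEB1 and ZEB2 lay 701 and 1431, so a near profile is common.

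Among 17 other cadherin genes, 16 were named by a probe set, 12 exceeded the floor on some array, and 10 were tested. None of the 10 passed for the culture or the plasmid in limma, against 6.99% and 0.128% of all tested genes. Their median 3D over 2D ratio was 0.22 in each line, beside 0.01 and 0.04 over all genes tested. CDH6, a cadherin of kidney and neural crest cells, read 56.7 and 160 in 2D and 138 and 224 in 3D. Its plasmid term was 0.92 ± 0.25 (SE; adjusted p 0.176 in limma), with the empty-vector 2D value at the floor, and its 5 other probe sets gave no such pattern, 4 being below the floor throughout. CDH20 read 65.8 and 28.9 in 2D and 93.6 and 111 in 3D and did not pass.

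Of 17 catenins and other partners of the cadherin tail, 12 were tested. For the culture, 1 rose in 3D and 0 fell, beside 2.83% and 4.15% of all genes tested. The same gene was the 1 that passed for the plasmid, beside 0.128% of all genes tested. It was CTNNB1, which encodes beta-catenin, the link between the classical cadherin tail and alpha-catenin. Probe set 201533_at read 778 and 1188 in 2D and 1273 and 3243 in 3D. The culture term was 1.08 ± 0.18 (SE; adjusted p 6.75e-04 in limma), from ratios of 0.71 without ARHGAP8 and 1.45 with it. The plasmid term was 0.98 ± 0.18 (SE), with an adjusted p of 0.0216 in limma, from ratios of 0.61 in 2D and 1.35 in 3D. The highest signal, 3243, was read on the ARHGAP8 3D array, which stood apart in its ribosomal RNA controls, as given below. A link between them was not tested. The plasmid call was lost after quantile or cyclic loess normalization, where no gene passed for the plasmid (1003 and 1053 at an unadjusted p under 0.05 in limma). Nor did any gene pass for it with a floor at the 25th percentile, unfiltered genes, every probe set or the mean of the probe sets. The other CTNNB1 probe sets differed from 201533_at. Probe set 1554411_at gave culture ratios of 0.36 and 0.70 and a mean plasmid ratio of 0.21. Probe set 223679_at gave culture ratios of -0.35 and 0.57 and a mean plasmid ratio of -0.52. The list medians of the 3D over 2D ratio were 0.04 and -0.15. Alpha-catenin, CTNNA1, had a culture term of 0.13, and vinculin, VCL, one of -0.29, neither of them passing. JUP, or plakoglobin, was below the floor on all arrays.

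Of 10 genes of cadherin cleavage or of partners outside the cell, 9 were tested. None passed for the culture or the plasmid in limma, against 6.99% and 0.128% of all genes tested. PSENEN, a subunit of gamma-secretase, was at 0.26 and 1.11 in the ARHGAP8 line over the empty-vector line in 2D and 3D. FGFR1, a growth factor receptor known to bind N-cadherin, had 3D over 2D ratios of 0.50 without ARHGAP8 and 0.54 with it.

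Of 20 other EMT-related transcription factors, 14 were tested. In 3D, 1 rose and 0 fell, beside 2.83% and 4.15% of all genes tested. SOX4 read 475 and 478 in 2D and 1009 and 1101 in 3D, with a culture term of 1.15 ± 0.16 (SE; adjusted p 1.41e-04 in limma). Its 3 other probe sets above the floor on any array had mean culture ratios of 0.30, 0.18 and 0.40. The 0.18, of 201416_at, came from ratios of opposite sign, -0.38 without ARHGAP8 and 0.75 with it. The 0.40, of 201418_s_at, is a lower bound, with both 2D signals (36.4 and 43.6) below the floor. The list medians were 0.02 and 0.05. TWIST2, the relative of TWIST1, read 137 and 109 in 2D and 149 and 175 in 3D, and PRRX1 was at -0.49 and -0.58 without passing (adjusted p 0.0719 in limma). SNAI3 was above the floor on 1 array only, at 72.7. Of 21 corepressors and turnover factors of SNAI and ZEB proteins, 19 were tested. In 3D, 0 rose and 2 fell, beside the same shares of 2.83% and 4.15%. EZH2, the histone methyltransferase of Polycomb, fell by 0.72 ± 0.19 and the deubiquitinase gene USP1 fell by 0.80 ± 0.16 (SE; adjusted p 0.0256 and 0.00361 in limma). List medians were -0.03 and -0.18.

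Of 26 epithelial markers, 13 were tested, 0 rose and 1 fell in 3D, beside 2.83% and 4.15% of all genes tested. EPCAM, CLDN3, CLDN4, CLDN7, KRT19, DSP and 5 more were below the floor on every array, as CDH1 was. The other 13 of the 24 named by a probe set exceeded it on some array. Among them TJP1 (339 to 558), ESRP1 (127 to 270) and MUC1 (89.2 to 253) were above it on all 4. KRT18, an intermediate filament gene of simple epithelia, read 729 and 944 in 2D and 313 and 458 in 3D, and fell by 1.13 ± 0.17 (SE; adjusted p 2.40e-04 in limma), by a probe set of a type that can bind related transcripts. Its partner KRT8 was at 0.49 and 0.29. List medians were 0.19 and 0.13. Of 20 mesenchymal markers, 17 were tested, with culture medians of 0.10 and 0.04. For the culture and the plasmid 0 passed in limma, against 6.99% and 0.128% of all genes tested. VIM, or vimentin, read 5455 and 5440 in 2D and 5380 and 6563 in 3D. AXL, a receptor tyrosine kinase, did not exceed the floor without ARHGAP8, and with ARHGAP8 it read 107 in 2D and 248 in 3D, at least 0.57 and 1.78 log2 higher, short of the threshold (limma adjusted p 0.112). LOX, lysyl oxidase, was at 0.63 and 0.80 in 3D over 2D, also short of it (limma adjusted p 0.091).

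**Figure D4:**
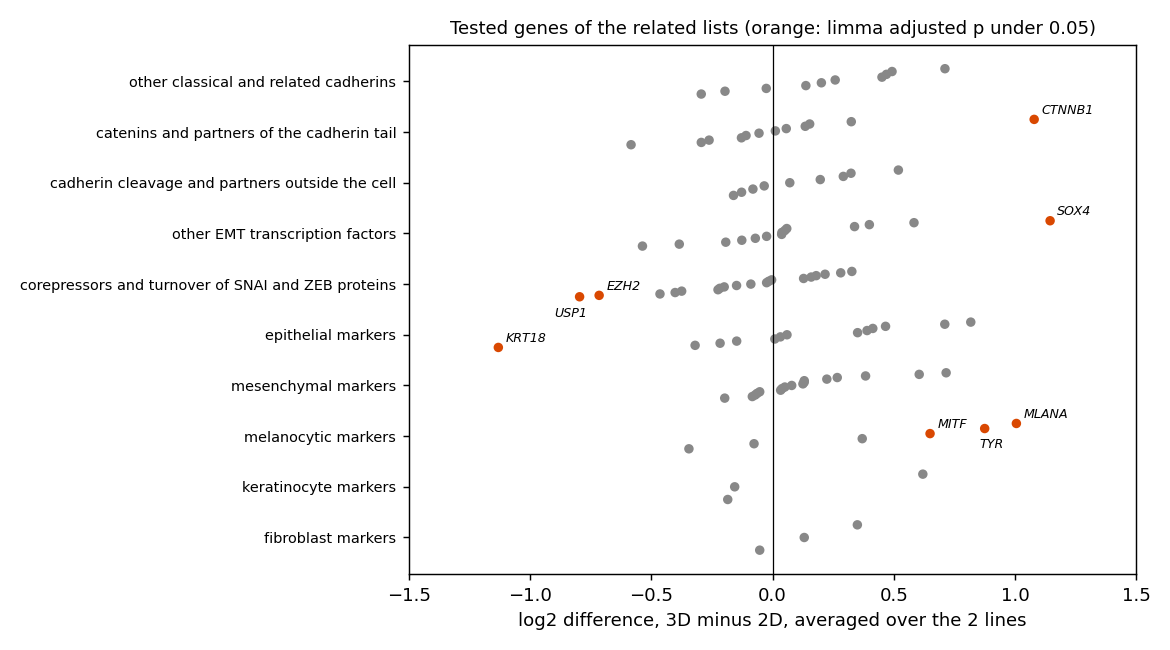
Culture term (log2, 3D minus 2D, averaged over the 2 lines) of each tested gene of the related lists, 1 point per gene, orange where the limma adjusted p was under 0.05. KRT18, USP1 and EZH2 lie to the left, and CTNNB1, SOX4, MLANA, TYR and MITF to the right.

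The melanoma label was checked against melanocytic markers. MLANA, TYR, MITF, SOX10, S100B and S100A1 were above the floor on all 4 arrays, PMEL was below it on all 4, and DCT was not named by a probe set alone. Among these 8 markers 6 were tested, of which 3 rose in 3D and 0 fell, beside 2.83% and 4.15% of all genes tested. SOX10, S100B and S100A1 did not pass, with culture terms of -0.35, -0.08 and 0.37. MLANA, TYR and MITF rose in 3D, by 1.01 ± 0.24, 0.88 ± 0.18 and 0.65 ± 0.18 (SE; adjusted p 0.0138, 0.00528 and 0.0277 in limma). Their 3D over 2D ratios were 1.84, 1.30 and 0.97 with ARHGAP8 and 0.17, 0.45 and 0.33 without it, a gap that was not tested. The summed signal of the 7 named melanocytic markers was 8626 in 2D and 9785 in 3D without ARHGAP8, against 5828 and 8539 with it. Of 6 keratinocyte markers, KRT10 (582 to 1201) and SFN (664 to 829) were above the floor on all 4 arrays and KRT1 on both 3D arrays, while KRT5, KRT14 and DSG3 were below it throughout. The sum over the 6 was 1786 in 2D and 1437 in 3D without ARHGAP8, against 2000 and 2151 with it. Of 6 fibroblast markers, COL1A1 (179 to 253), COL1A2 (155 to 228) and DCN (117 to 184) were above the floor on all 4 arrays, and COL3A1, PDGFRB and LUM were below it throughout. Their sum in 2D and 3D was 700.1 and 763 without ARHGAP8, against 575 and 595 with it. The part of these levels in the differences of SNAI2, CDH2 and CDH19 was not tested.

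The arrays had equal trimmed means by the authors' scaling, and their number limits the precision. The ARHGAP8 3D array stood apart in its 18S ribosomal RNA control probe sets, with a median signal of 626 against 27.7 to 49.4 on the others. Its 28S control probe sets had a median of 1390, against 94.4 to 119 on the others. ACTB, whose 3′ over 5′ signals are a sign of RNA quality, had a ratio of 1.05 to 1.11 in 2D and 1.23 to 1.32 in 3D. The same ratio for GAPDH differed less, at 0.874 to 0.899 in 2D and 0.901 to 0.925 in 3D. The part of the ribosomal RNA controls or of RNA quality in the culture or plasmid differences was not tested. Without the ARHGAP8 3D array, the remaining culture ratios were 0.93 for SNAI2, -0.66 for CDH2 and 0.85 for CDH19, values with no test.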

How the data were processed

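The authors deposited 1 linear intensity per probe set and array. Per the submitters' processing notes the tool was MAS5, with no version or detection call given in the sources used here. Arrays were rescaled to one trimmed mean (2% cut from each end, 150.0 on each array as deposited). Signals below a floor of 72.3, the median of all signals outside the 62 control probe sets, were raised to it before log2 was taken. Each gene took the value of the probe set with the highest mean log2 signal among those annotated to it alone. An additive model of plasmid and culture was fitted with limma 3.58.1 (R 4.3.3), using eBayes with a trend on intensity, over the 13239 genes above the floor on at least 2 arrays. P-values were two-sided and Benjamini-Hochberg adjusted over these genes, with a threshold of 0.05. The fit had 1 residual degree of freedom and prior degrees of freedom of 19.4, so each standard error (SE) draws mostly on other genes of like signal. The test was tested on simulated data. The members and related lists were chosen with earlier results of these data known. The rule named all members; from each related list it named the genes that passed, or otherwise the 2 with the largest mean difference; and it named the 2 genes nearest in pattern to a member spanning at least 2-fold. Scaling, floor, filter, probe set and variance alternatives were tried.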

Additional observations from a re-analysis of the deposited data

Results flagged for a closer look

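The 3D over 2D ratio of ZEB1 probe set 210875_s_at went opposite ways in the lines, 0.50 without ARHGAP8 and -0.78 with it, a difference of -1.27 log2 that was not tested. Probe sets 212764_at and 212758_s_at of the same gene had differences of -0.44 and -0.49. Outside the genes compared, the 18S ribosomal RNA control probe sets had a median signal of 626 on the ARHGAP8 3D array, above the 27.7 to 49.4 of the other arrays. The 28S ones had 1390 there, above 94.4 to 119. The low signal of ZEB1 probe set 210875_s_at, 125, was read on this same array, and a link between them was not tested.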

How the results depend on the processing

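The count of members passing for the culture, 2 as reported, was 2 after quantile or cyclic loess normalization, without a floor, with a floor at the 25th percentile and with every probe set tested, SNAI2 and CDH2 each time, and 3, CDH19 included, when a gene had to exceed the floor on all 4 arrays. It was 1 (SNAI2) without the intensity trend, and 0 with no filter or with the mean of a gene's probe sets; over all genes these 3 settings gave 425, 0 and 37 culture calls against 925, and quantile normalization and the lower floor 565 and 611. Unfiltered, genes at the floor on all arrays enter with no variance. SNAI2 had an adjusted p in limma of 0.0843 with the mean of the probe sets, although its own values were the same there, and ran from 3.32e-04 to 0.475 over the alternatives; CDH2 ran from 0.00447 to 0.475. Plasmid calls among members were 0 under each of the 9 alternatives, and over all genes 0, 1, 17 or 61. No call that had passed changed sign. Among members and factors that had not passed, other settings turned the sign for ZEB1 and ZEB2. The ZEB1 culture difference was -0.057 with the mean of the probe sets, -0.14 on probe set 210875_s_at and -0.34 on 212758_s_at. For ZEB2 the plasmid difference was 0.0053 with the mean of the probe sets and 0.15 on probe set 228333_at, whose culture difference was -0.036. Leaving out an array leaves 1 ratio per factor with no test: -0.87 to -0.66 for the culture difference of CDH2, 0.85 to 0.93 for SNAI2, 0.63 to 0.85 for CDH19, and 0.53 to 0.67 for the plasmid difference of TWIST1. Such a ratio turned sign for the plasmid difference of CDH2 (0.072) and of ZEB1 (0.17) without either 3D array, and for the culture difference of ZEB2 (-0.024) without either empty-vector array. The reported additive fit already sets each line against itself between cultures, and the labels give no replicate numbers for a further block. Signals near the floor limit CDH19, SNAI1 and the lower ZEB1 probe sets.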
